A study of Homo sapiens with 12 samples.

Results

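The SLC25 family of mitochondrial carriers was taken from RNA sequencing of A375 cells, an established human melanoma line. Members were the gene names of the deposited count table made of SLC25A followed by a number, a rule that uses no measured value. It found 48 of 61209 gene names, of which 42 had enough counts to be tested, among 18526 tested genes. The 4 groups held 3 libraries each. Control cells grown with glucose and control cells starved of glucose for 5 h kept OGDH, and the matching pair of groups was depleted of it. The sample titles call the depletion KO and the series text knockdown, so "OGDH-depleted" is used here. How the depletion was made, and whether the depleted line is 1 clone, is not given in the sources used here. OGDH encodes the E1 subunit of the complex that turns 2-oxoglutarate into succinyl-CoA in the mitochondrial matrix.

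SLC25 proteins are built from repeated pairs of membrane helices, and nearly all sit in the inner mitochondrial membrane. They exchange metabolites, nucleotides and cofactors between cytosol and matrix, often as antiporters, and so join cytosolic pathways to the tricarboxylic acid cycle and respiration. The 2-oxoglutarate/malate carrier and the aspartate/glutamate carriers form the malate-aspartate shuttle, which moves reducing equivalents from cytosolic NADH into mitochondria. Other members carry citrate out for lipid synthesis, exchange ADP for ATP, or bring in phosphate, iron, glutathione and NAD.

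Libraries held 21556273 to 25546615 counted fragments, and SLC25 transcripts took 0.163% to 0.252% of them. OGDH was at 156, 142 and 166 CPM (counts scaled to a common library size) in control replicates 1, 2 and 3. It was at 129, 133 and 130.5 CPM in the starved controls, at 38.1, 45.1 and 36.3 CPM in OGDH-depleted cells and at 32.3, 33.9 and 32.3 CPM in starved OGDH-depleted cells. The depleted libraries all lay below the controls, a log2 difference of -1.96 (SE 0.10) with glucose and -1.99 (SE 0.10) without. Of 7 melanoma lineage markers SOX10 carried nearly all the signal, and TYR was at 0 in 10 of 12 libraries. Their summed level was 336 to 426 CPM in starved controls against 538 to 713 CPM in the other groups. That sum follows SOX10, at 633 ± 46.2 CPM in control and 348 ± 42.8 in starved control cells (SD, n = 3). MITF went the other way, at 30.1 ± 7.94 and 44.2 ± 8.73 CPM, with libraries that overlapped. Blood, endothelial and epithelial markers summed to at most 1.18 CPM per library and fibroblast markers to 5.70 to 11.5 CPM. Mitochondrially encoded transcripts took 3.06% to 14.6% of counts, and 3 libraries (replicate 2 of control, 3 of starved control and 3 of starved OGDH-depleted cells) differed from the other 2 libraries of their groups in that share and in the trend of counts on GC content. No label tells whether replicates came from separate cultures, so each p-value speaks of the variation among these libraries alone, which may be technical. Counts are relative to each library, so fewer cells and less RNA per cell cannot be told apart.

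Levels between carriers were compared per kilobase of exon (CPM per kb), with all annotated exons of a gene merged rather than the length of its main transcript. The order, and the shares of related carriers given below, depend on that length. It was 8896 bases for SLC25A3 and 1555 for SLC25A5, and in CPM alone SLC25A3 stood above SLC25A5 in all 12 libraries. SLC25A5, the main ADP/ATP carrier of dividing cells, stood first in control cells at 205 ± 23.6 CPM per kb (SD, n = 3). SLC25A3, the phosphate carrier, followed at 53.1 ± 8.02, then SLC25A39, a glutathione carrier, at 37.4 ± 12.6, SLC25A11, the 2-oxoglutarate/malate carrier, at 29.5 ± 11.3, and SLC25A37, the iron carrier mitoferrin-1, at 21.0 ± 1.45 CPM per kb. At the low end stood SLC25A32, SLC25A21 and the glutamate carrier SLC25A18, at 0.156 ± 0.00898, 0.141 ± 0.0441 and 0.117 ± 0.0271 CPM per kb. The order is coarse: for 36 of the 41 pairs of neighbours the control libraries overlapped, and only SLC25A5, SLC25A37, SLC25A17, SLC25A53 and SLC25A34 lay wholly above the next carrier. The 6 members with too few counts to test were SLC25A2, SLC25A31, SLC25A41, SLC25A47, SLC25A48 and SLC25A52, with at most 36 fragments each over all 12 libraries. They include the second ornithine carrier and a germ-cell ADP/ATP carrier. All members together summed to 2141 ± 165 CPM in control, 2088 ± 189 in starved control, 2079 ± 57.6 in OGDH-depleted and 2066 ± 157 CPM in starved OGDH-depleted cells, ranges that overlapped.

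**Figure D1:**
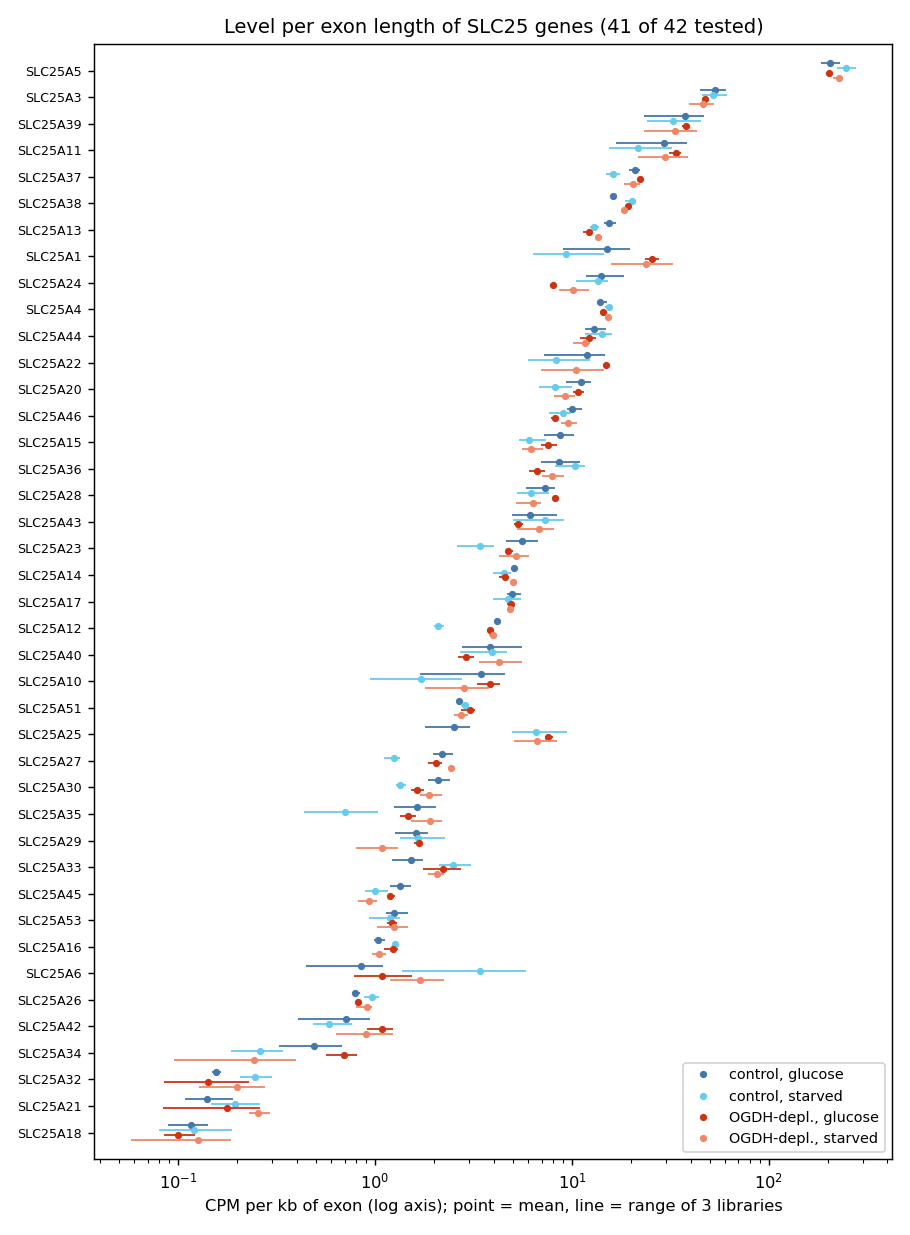
Level of 41 of the 42 tested SLC25 genes in CPM per kb of exon on a log axis, ordered by the mean in control cells, with a point for the mean and a line for the range of 3 libraries in each group. SLC25A5 sits at 205 CPM per kb in control cells and SLC25A18 at 0.117, while SLC25A12, SLC25A27, SLC25A30 and SLC25A35 have their starved control points to the left of the other groups and SLC25A25 has its control point there.

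Calls named below are those of the fit to all 12 libraries unless another fit is given. On glucose starvation of control cells 12 of 42 carriers (28.6%) changed, by edgeR's quasi-likelihood test at a Benjamini-Hochberg adjusted p under 0.05, beside 34.5% of all tested genes. SLC25A6, SLC25A25, SLC25A33 and SLC25A38 rose (17% of all tested genes rose), and SLC25A12, SLC25A15, SLC25A23, SLC25A27, SLC25A30, SLC25A35, SLC25A37 and SLC25A45 fell (17.5% of all). The median log2 change of the carriers was -0.11, beside -0.02 over all tested genes. The libraries of the 2 groups did not overlap for 8 carriers that were higher and 9 that were lower on starvation of control cells, where 40.2% of all tested genes did not overlap, and for 8 and 6 in OGDH-depleted cells, where 39.7% of all did not. In OGDH-depleted cells 1 carrier fell, SLC25A34, and 0 rose, where 7.18% of all tested genes were called, 2.42% higher and 4.76% lower. At an unadjusted p under 0.05 the edgeR test gave 3 carriers there, and DESeq2 called 1. Without the 3 libraries that stood apart, 29 carriers were called in control cells and 4 in OGDH-depleted cells, while 60.5% and 17.6% of all genes were called. With a GC-content offset as well, they were 24 and 6, with 56.6% and 15.5% of all genes. These fits set control replicates 1 and 3 against starved control replicates 1 and 2. Counts rose with GC content in the former and fell with it in the latter. Mitochondrially encoded transcripts took 4.97% and 6.35% of counts in those controls, against 14.4% and 13.2%. Starvation of control cells and the GC trend thus cannot be told apart in these fits. The offset alone added SLC25A1, SLC25A5, SLC25A10, SLC25A13, SLC25A20 and SLC25A26 in control cells and lost SLC25A23, SLC25A35 and SLC25A45. Fitting only the compared groups lost SLC25A15, SLC25A33, SLC25A37, SLC25A38 and SLC25A45.

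After OGDH loss with glucose 1 of 42 carriers (2.38%) was higher, SLC25A25, and 0 were lower, where 3.04% of all tested genes were called, 1.59% higher. At an unadjusted p under 0.05 there were 8, and DESeq2 called 4, of which 2 were lower. Without glucose SLC25A1, SLC25A12, SLC25A23, SLC25A27, SLC25A30, SLC25A35 and SLC25A37 were higher in OGDH-depleted cells, 7 of 42 or 16.7%, and 0 were lower. Of all tested genes 28.7% were called in that comparison, with 13.7% of all tested genes higher and 15% lower. DESeq2 also gave 0 lower carriers, and 9 carriers of either sign had an unadjusted p under 0.05. Other fits did give lower carriers. With the GC offset 8 were higher and 4 lower, and without the 3 libraries that stood apart 15 and 5. With both changes 15 were higher and 6 lower, and with no filter on low counts 6 and 1. The libraries did not overlap for 5 higher and 6 lower carriers with glucose (27% of all tested genes, either direction) and for 7 higher and 3 lower without (38.7% of all tested genes, 19.6% lower). Of the 7 called higher without glucose, SLC25A12, SLC25A23, SLC25A27, SLC25A30, SLC25A35 and SLC25A37 were also among the 8 that fell on starvation of control cells. Both comparisons use the same 3 starved control libraries, so this overlap is not independent. Without starved control replicate 1 the count was 4, and fitting only the compared groups lost SLC25A23, SLC25A30 and SLC25A37. Without the 3 libraries that stood apart, 5 carriers were called with glucose and 20 without, while 10.8% and 52.6% of all genes were called. With the GC offset as well they were 7 and 21, with 13.4% and 51.1% of all genes. Without glucose these fits set starved control replicates 1 and 2 against starved OGDH-depleted replicates 1 and 2. The log2 slopes per 10% GC were -0.19 and -0.23 in the former and 0.07 and -0.07 in the latter. Mitochondrially encoded transcripts took 14.4% and 13.2% of counts, against 3.06% and 5.12%. OGDH loss without glucose and the GC trend thus cannot be told apart in these fits.

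The interaction, the starvation response of OGDH-depleted cells minus that of control cells, tests whether the responses differ. It was called for 7 of 42 carriers (16.7%), beside 17.3% of all tested genes. For SLC25A12, SLC25A27, SLC25A30 and SLC25A35 it was positive (8.3% of all genes): they fell in control cells and did not pass the test in OGDH-depleted cells. For SLC25A16, SLC25A25 and SLC25A38 it was negative (8.95% of all genes). Without the 3 libraries that stood apart it was called for 20 carriers and 43% of all genes, and with the GC offset as well for 19 and 42%. The interaction uses the same control and starved control libraries, so it cannot be told apart from the GC trend in these fits either.

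**Figure D2:**
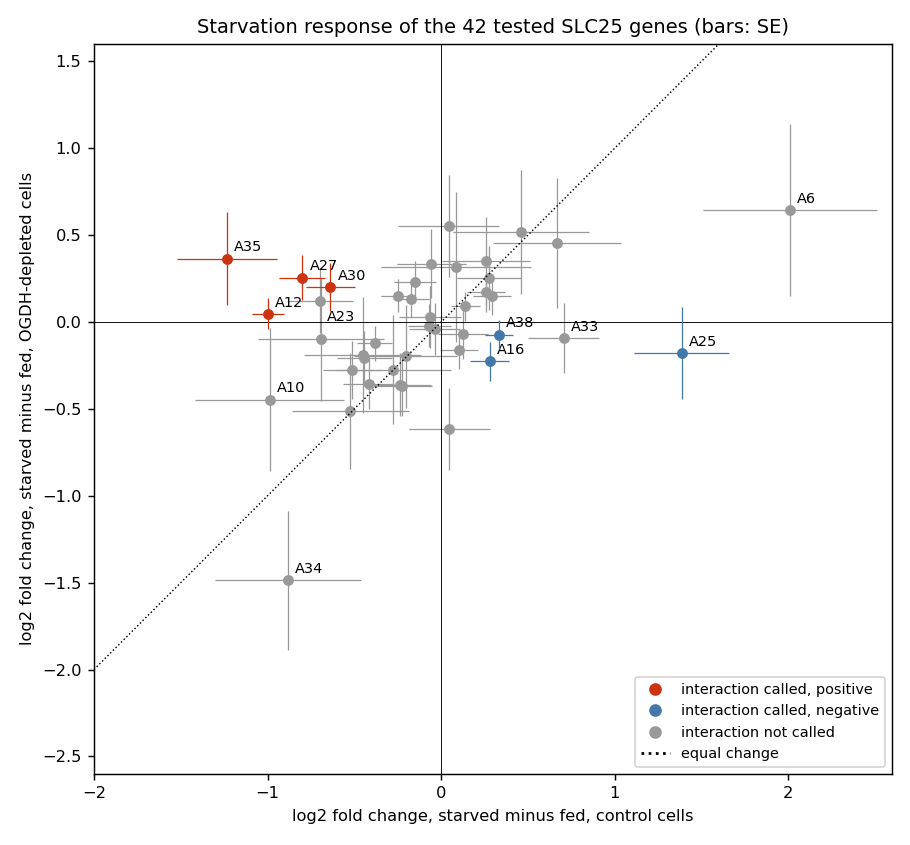
Log2 fold change on glucose starvation in control cells (horizontal axis) and in OGDH-depleted cells (vertical axis) for the 42 tested SLC25 genes, with bars of 1 SE, the line of equal change and the colours of the interaction call. SLC25A12, SLC25A27, SLC25A30 and SLC25A35 lie to the left near or above the horizontal zero line, SLC25A25 lies far to the right at -0.18 on the vertical axis, and SLC25A34 is the lowest point at -1.49.

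Among the malate-aspartate shuttle carriers, SLC25A12 had the lowest adjusted p of the family on starvation of control cells. SLC25A12 (aralar) and SLC25A13 (citrin) are calcium-regulated carriers that send aspartate out of mitochondria in exchange for glutamate. The gene SLC25A12 spans chromosome 2, 171783405 to 171999859 on the minus strand (hg38). It was at 25.7, 25.9 and 24.9 CPM in control replicates 1, 2 and 3 and at 12.5, 13.6 and 12.2 CPM in the starved controls. OGDH-depleted cells held 23.3, 22.7 and 24.7 CPM, and starved OGDH-depleted cells 24.4, 23.2 and 25.4 CPM. The 3 starved control libraries were the lowest of the 12, with no overlap with any other group. SLC25A12 thus fell on starvation of control cells by 0.998 on the log2 scale (SE 0.09, adjusted p = 9.5e-06). In OGDH-depleted cells the change was 0.05 (SE 0.09, adjusted p = 0.77). Without glucose it was 0.93 higher in OGDH-depleted cells on the log2 scale (SE 0.09, adjusted p = 2.5e-05), and the interaction was 1.04 (SE 0.13, adjusted p = 0.00023). These 3 calls held under all alternatives, which were 24 for each contrast and 23 for the interaction.

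SLC25A13 spans chromosome 7, 96120220 to 96322147 (hg38). It was at 54.1, 62.3 and 54.8 CPM in control and 45.7, 51.1 and 47.3 CPM in starved control cells. OGDH-depleted cells held 46.2, 42.3 and 47.6 CPM, and starved OGDH-depleted cells 48.9, 50.02 and 52.4 CPM. The control libraries lay above all 9 others. None of its changes passed the test: starvation of control cells gave -0.25 (SE 0.09, adjusted p = 0.059) and OGDH loss with glucose -0.33 (SE 0.09, adjusted p = 0.095) on the log2 scale. With the GC-content offset both passed, at -0.28 (adjusted p = 0.0049) and -0.28 (adjusted p = 0.026). Per kb of exon, SLC25A12 made up 21.4% ± 1.14 of the 2 aspartate/glutamate carriers in control cells, 13.9% ± 0.354 in starved controls, 23.9% ± 0.534 in OGDH-depleted and 22.6% ± 0.633 in starved OGDH-depleted cells.

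SLC25A11, the 2-oxoglutarate/malate carrier and the other arm of the shuttle, lies on chromosome 17 at 4937130 to 4940053 (hg38). Its level was 94.6, 41.4 and 82.4 CPM in control and 41.9, 37.9 and 79.7 CPM in starved control cells. OGDH-depleted cells held 84.2, 77.0 and 88.2 CPM, and starved OGDH-depleted cells 95.9, 69.3 and 53.6 CPM. Control replicate 2 and starved OGDH-depleted replicate 3 were the lowest of their groups and starved control replicate 3 the highest, and the groups overlapped. The change on starvation of control cells was -0.45 (SE 0.34, adjusted p = 0.33), and no contrast was called. Without the 3 libraries it was -1.16 (adjusted p = 2.5e-05), and with the GC offset as well -0.68 (adjusted p = 0.00021). As said above, starvation and the GC trend cannot be told apart in these fits.

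The other dicarboxylate and tricarboxylate carriers gave 1 call in all 5 comparisons. SLC25A1, the citrate carrier, which exports citrate for lipid synthesis, lies on chromosome 22 at 19175581 to 19178739 (hg38). It was at 39.4, 17.996 and 33.4 CPM in control, 14.2, 12.7 and 29.1 CPM in starved control, 49.6, 46.8 and 55.6 CPM in OGDH-depleted and 65.3, 45.0 and 31.4 CPM in starved OGDH-depleted cells. Every OGDH-depleted library lay above every control library of the same feeding state. The difference was called only without glucose, at 1.33 on the log2 scale (SE 0.37, adjusted p = 0.018), while with glucose it was 0.74 (SE 0.36, adjusted p = 0.34). The call was lost without starved control replicate 1 (adjusted p = 0.073), starved control replicate 2 (adjusted p = 0.070) or starved OGDH-depleted replicate 1 (adjusted p = 0.070).

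SLC25A10, the dicarboxylate carrier, was at 11.97, 4.46 and 10.5 CPM in control and 3.70, 2.47 and 7.28 CPM in starved control cells. It was at 11.3, 8.61 and 10.4 CPM in OGDH-depleted and 9.93, 7.54 and 4.70 CPM in starved OGDH-depleted cells. The groups overlapped in every comparison, and the change on starvation of control cells, -0.99 (SE 0.43, adjusted p = 0.097), passed without control replicate 2 (adjusted p = 0.020) or starved control replicate 3 (adjusted p = 0.017). SLC25A10 shares 46.6% of its exon bases with another annotated gene, where fragments could not be assigned. SLC25A21, the 2-oxoadipate carrier, stayed between 0.400 and 1.40 CPM in all 12 libraries, and no contrast was called.

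Among the other amino acid carriers, SLC25A38 rose and SLC25A15 fell on starvation of control cells. SLC25A38 imports glycine, used for heme synthesis, and lies on chromosome 3 at 39383370 to 39397351 (hg38). It was at 43.2, 41.8 and 43.3 CPM in control, 56.3, 49.5 and 55.9 CPM in starved control, 50.5, 50.6 and 53.0 CPM in OGDH-depleted and 49.0, 49.1 and 48.3 CPM in starved OGDH-depleted cells. The control libraries were the lowest of all 4 groups and did not overlap with any. The rise on starvation was 0.33 (SE 0.08, adjusted p = 0.0089) in control cells against -0.07 (SE 0.08, adjusted p = 0.60) in OGDH-depleted cells, with an interaction of -0.41 (SE 0.12, adjusted p = 0.034). With glucose the OGDH-depleted cells differed from control by 0.26 (SE 0.08, adjusted p = 0.13). The rise was lost with no filter on low counts (adjusted p = 0.17) and when only the compared groups were fitted (adjusted p = 0.091). The interaction was lost with no filter too (adjusted p = 0.37) and was under the threshold in 2 of the 12 fits that left out a library, those without control replicate 2 or starved control replicate 2. In the other 10 the adjusted p was 0.062 to 0.090.

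SLC25A15, an ornithine carrier of the urea cycle, was at 43.1, 30.3 and 35.9 CPM in control and 22.8, 22.5 and 31.0 CPM in starved control cells. In OGDH-depleted cells it was at 30.5, 29.01 and 35.02 CPM and in starved OGDH-depleted cells at 29.7, 24.9 and 23.3 CPM. The fall in control cells, by 0.51 on the log2 scale (SE 0.17, adjusted p = 0.033), came with an overlap of control replicate 2 and starved control replicate 3. The call was lost without control replicate 1 or 3 or starved control replicate 1 or 2, at adjusted p = 0.073 to 0.14. SLC25A22, a glutamate carrier, was at 67.6, 33.1 and 63.8 CPM in control, 29.96, 27.6 and 56.7 CPM in starved control, 68.1, 65.7 and 72.0 CPM in OGDH-depleted and 66.5, 45.7 and 32.1 CPM in starved OGDH-depleted cells. As for SLC25A11, control replicate 2 and starved OGDH-depleted replicate 3 were the lowest of their groups and starved control replicate 3 the highest, and no contrast was called, with -0.52 (SE 0.34, adjusted p = 0.26) on starvation of control cells. Without the 3 libraries this was -1.20 (adjusted p = 2.4e-05), in a fit where starvation and the GC trend cannot be told apart. SLC25A20, which carries acylcarnitines for fat oxidation, came close to the threshold in control cells at -0.44 (SE 0.16, adjusted p = 0.051). SLC25A18, SLC25A29, which carries basic amino acids, and SLC25A44, which carries branched-chain amino acids, were called in none of the 5 comparisons.

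Of the uncoupling-protein-like carriers, SLC25A27 and SLC25A30 moved like SLC25A12. The proteins resemble the brown fat uncoupling protein in sequence, and their transport in cells is less settled. SLC25A27 lies on chromosome 6 at 46652915 to 46678190 (hg38) and was at 6.501, 8.18 and 6.78 CPM in control and 3.65, 4.41 and 4.25 CPM in starved control cells. OGDH-depleted cells held 6.12, 7.15 and 6.83 CPM, and starved OGDH-depleted cells 7.91, 8.12 and 7.98 CPM. The starved controls were again the lowest 3 of the 12 libraries. The fall in control cells was by 0.80 on the log2 scale (SE 0.13, adjusted p = 0.00072), beside 0.26 (SE 0.13, adjusted p = 0.24) in OGDH-depleted cells. The difference between the genotypes without glucose was 0.96 (SE 0.13, adjusted p = 0.00027) and the interaction 1.06 (SE 0.18, adjusted p = 0.0023), and all 3 calls held under all 24, 24 and 23 alternatives.

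SLC25A30 lies on chromosome 13 at 45393316 to 45418455 (hg38). It was at 12.6, 16.3 and 13.6 CPM in control, 8.92, 9.73 and 8.63 CPM in starved control, 10.3, 10.8 and 12.1 CPM in OGDH-depleted and 11.5, 11.7 and 14.9 CPM in starved OGDH-depleted cells. Its starved controls were the lowest libraries too. The fall in control cells was by 0.64 on the log2 scale (SE 0.14, adjusted p = 0.0044) and the interaction was 0.84 (SE 0.20, adjusted p = 0.013), and both held under all 24 and 23 alternatives. The difference without glucose, 0.48 (SE 0.14, adjusted p = 0.023), was lost without starved control replicate 1 (adjusted p = 0.069), starved control replicate 3 (adjusted p = 0.061) or starved OGDH-depleted replicate 3 (adjusted p = 0.055). SLC25A14, the third of this set, was called in none of the comparisons and moved by -0.17 (SE 0.10, adjusted p = 0.22) in control cells. Per kb, SLC25A27 made up 23.2% ± 1.66 of the 3 carriers in control, 17.6% ± 0.472 in starved control, 24.8% ± 2.14 in OGDH-depleted and 26.2% ± 1.23 in starved OGDH-depleted cells.

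**Figure D3:**
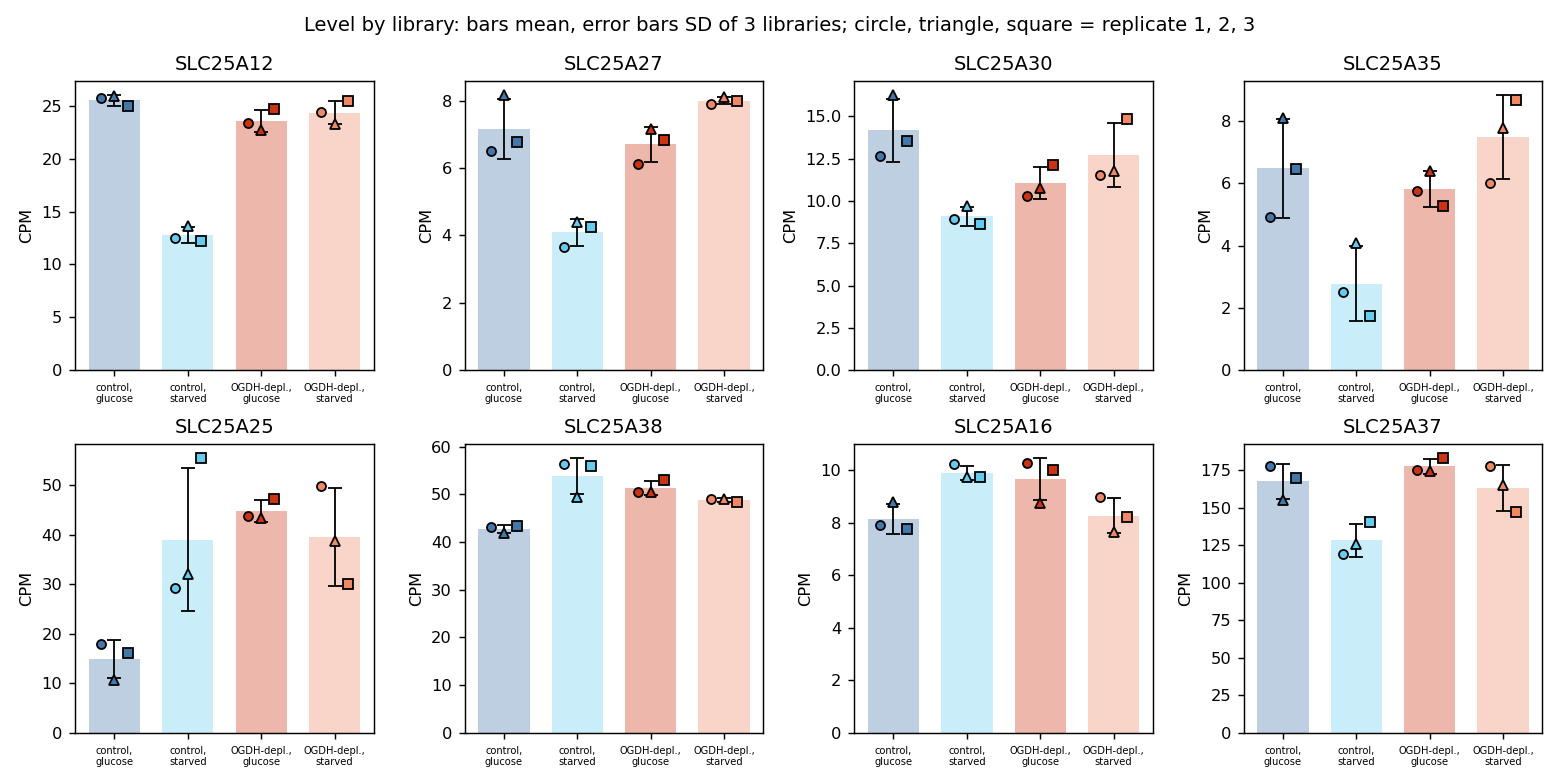
Level in CPM of 8 SLC25 genes by library, with bars for the mean and error bars for the SD of 3 libraries in each group, and symbols for replicates 1, 2 and 3. In SLC25A12, SLC25A27, SLC25A30 and SLC25A35 the 3 starved control libraries are the lowest of the 12, and in SLC25A25 and SLC25A38 the 3 control libraries with glucose are the lowest.

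The ATP-Mg/phosphate carriers, calcium-regulated proteins that adjust the adenine nucleotide content of the matrix, changed in different directions. SLC25A25 lies on chromosome 9 at 128068201 to 128109245 (hg38). It was at 17.997, 10.6 and 16.2 CPM in control and 29.2, 32.1 and 55.6 CPM in starved control cells. OGDH-depleted cells already held 43.7, 43.4 and 47.2 CPM with glucose, and starved OGDH-depleted cells 49.8, 38.8 and 29.96 CPM. The fed control libraries lay below all 9 others, and starved control replicate 3 was the highest of the 12. SLC25A25 rose by 1.38 on the log2 scale (SE 0.27, adjusted p = 0.0022) on starvation of control cells and was 1.58 higher (SE 0.27, adjusted p = 0.011) after OGDH loss with glucose. In OGDH-depleted cells starvation gave -0.18 (SE 0.26, adjusted p = 0.69), and the interaction was -1.56 (SE 0.38, adjusted p = 0.015). The 2 rises share the fed control libraries. All 3 calls held under the 24, 24 and 23 alternatives, but without the 3 libraries that stood apart the rise in control cells was 0.84 (adjusted p = 0.00013) and the interaction -0.87 (adjusted p = 0.0013).

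SLC25A23 went the other way. It was at 22.6, 32.7 and 25.8 CPM in control, 19.7, 17.6 and 12.8 CPM in starved control, 22.7, 24.4 and 22.4 CPM in OGDH-depleted and 20.8, 25.3 and 29.5 CPM in starved OGDH-depleted cells. The starved controls lay lowest, without overlap with another group. The fall in control cells was by 0.70 on the log2 scale (SE 0.19, adjusted p = 0.013), the difference without glucose 0.60 (SE 0.19, adjusted p = 0.033), and the interaction 0.82 (SE 0.26, adjusted p = 0.054). With the GC offset the SLC25A23 change in control cells was -0.55 (adjusted p = 0.18), and with that offset and without the 3 libraries it was 0.07 (adjusted p = 0.71), so neither its size nor its direction was kept. The difference without glucose was lost without starved control replicate 2 or 3 or starved OGDH-depleted replicate 2 or 3, at adjusted p = 0.063 to 0.093. It was also lost with the GC offset, with or without the replicate block, and when only the compared groups were fitted. Leaving out the 3 libraries that stood apart, with or without the offset, lost it too.

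SLC25A24, the most abundant of the 3, was at 94.4 ± 25.03 CPM in control, 90.8 ± 17.9 in starved control, 54.0 ± 1.53 in OGDH-depleted and 68.2 ± 12.6 CPM in starved OGDH-depleted cells. With glucose each depleted library lay below each control library, a log2 difference of -0.81 (SE 0.20, adjusted p = 0.057) that 10 of 24 alternatives placed under the threshold. Per kb the make-up of the set shifted. SLC25A25 was 11.98% ± 4.68 of the 3 carriers in control cells, 28.3% ± 11.7 in starved control, 37.2% ± 1.37 in OGDH-depleted and 30.6% ± 8.97 in starved OGDH-depleted cells, while SLC25A24 was 62.9% ± 4.68, 57.2% ± 9.27, 39.5% ± 0.336 and 45.9% ± 6.07. The sum of the set stayed between 19.4 and 26.8 CPM per kb in all 12 libraries.

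**Figure D4:**
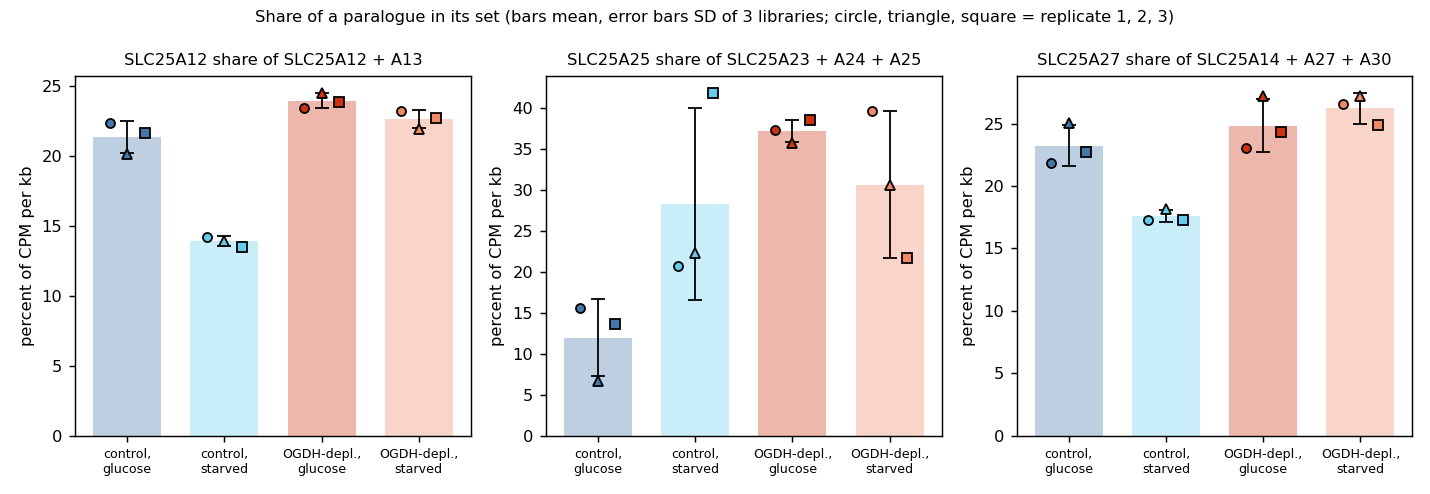
Share of SLC25A12, SLC25A25 and SLC25A27 in its set of related carriers, in percent of CPM per kb of exon, with bars for the mean and error bars for the SD of 3 libraries in each group and symbols for replicates 1, 2 and 3. The SLC25A12 share is 13.9% in starved control cells against 21.4% to 23.9% in the other groups, and the SLC25A25 share is 11.98% in fed control cells against 28.3% to 37.2%.

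The ADP/ATP carriers and the phosphate carrier took 37.9% to 46.4% of SLC25 counts, and 1 of the 4 tested, SLC25A6, was called, in starved control cells (34.5% of all genes called). SLC25A5 was at 358, 286 and 314 CPM in control, 369, 345 and 431 CPM in starved control, 319, 305 and 317 CPM in OGDH-depleted and 366, 364 and 328 CPM in starved OGDH-depleted cells. The groups overlapped in control cells, and the log2 change was 0.26 (SE 0.11, adjusted p = 0.097) in control and 0.17 (SE 0.11, adjusted p = 0.36) in OGDH-depleted cells. SLC25A4, the heart and muscle form, stayed between 64.2 and 76.5 CPM in all 12 libraries. SLC25A3 was at 538, 397 and 482 CPM in control, 434, 405 and 542 CPM in starved control, 420.3, 407 and 434 CPM in OGDH-depleted and 467, 409 and 351 CPM in starved OGDH-depleted cells. Neither SLC25A4 nor SLC25A3 was called in any comparison of the fit to all libraries. SLC25A3 was called, once the 3 libraries that stood apart were left out, on starvation of control cells (-0.29, adjusted p = 0.013), for OGDH loss with glucose (-0.29, adjusted p = 0.040) and for the interaction (0.33, adjusted p = 0.042). In that fit starvation of control cells and the interaction cannot be told apart from the GC trend. The SLC25A3 interaction had the other sign in the fit to all libraries. With the GC offset SLC25A5 was called on starvation of control cells (0.30, adjusted p = 0.021). SLC25A5 made up 92.7% to 93.5% of the counted ADP/ATP carriers per kb in every library. Fragments with more than 1 mapping position were left out of that share, so it is as uncertain as the level of SLC25A6 below.

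SLC25A6, whose row lies on chromosomes X and Y (X: 1386152 to 1392113, hg38), was at 3.41, 1.38 and 3.10 CPM in control and 9.26, 4.25 and 18.2 CPM in starved control cells. OGDH-depleted cells held 4.80, 2.43 and 2.87 CPM, and starved OGDH-depleted cells 6.94, 5.16 and 3.69 CPM. Every starved control library lay above every fed one. The rise was 2.01 on the log2 scale (SE 0.50, adjusted p = 0.0092), the interaction -1.36 (SE 0.70, adjusted p = 0.22). The rise was 1.04 (adjusted p = 0.027) without the 3 libraries that stood apart. Fragments with more than 1 mapping position were not counted, and the ADP/ATP carriers also have near-identical copies elsewhere in the genome, so the level of SLC25A6 is uncertain.

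Of the 9 tested cofactor and nucleotide carriers, 1 rose on starvation of control cells and 0 fell (11.1% called, beside 34.5% of all tested genes). At an unadjusted p under 0.05 there were 3. SLC25A33, which carries pyrimidine nucleotides, was at 6.78, 4.72 and 6.15 CPM in control, 8.19, 8.65 and 11.9 CPM in starved control, 8.17, 6.80 and 10.6 CPM in OGDH-depleted and 8.69, 8.12 and 7.16 CPM in starved OGDH-depleted cells. The fed controls lay lowest, and the rise in starved controls was 0.71 (SE 0.21, adjusted p = 0.020). It was lost without control replicate 2 (adjusted p = 0.055) or starved control replicate 3 (adjusted p = 0.071), and without the 3 libraries that stood apart (0.37, adjusted p = 0.10). SLC25A16, linked to coenzyme A, was at 7.89, 8.78 and 7.74 CPM in control, 10.2, 9.73 and 9.72 CPM in starved control, 10.2, 8.74 and 10.006 CPM in OGDH-depleted and 8.96, 7.62 and 8.21 CPM in starved OGDH-depleted cells. Its interaction was -0.51 (SE 0.16, adjusted p = 0.049), with neither starvation response called on its own. That call was kept in 2 of the 12 fits that left out a library, those without control replicate 2 or starved OGDH-depleted replicate 1, and the adjusted p was 0.051 to 0.13 in the other 10.

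SLC25A32, a folate carrier, was counted at 0.309 to 1.09 CPM, and 80.8% of its exon bases are shared with other annotated genes, where fragments could not be assigned. The peroxisomal carrier SLC25A17, the S-adenosylmethionine carrier SLC25A26, the pyrimidine nucleotide carrier SLC25A36, the coenzyme A carrier SLC25A42 and the NAD carrier SLC25A51 were called in none of the comparisons.

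Among the iron and glutathione carriers only SLC25A37 was called, and the difference between members was not tested. It was at 168 ± 11.6 CPM in control, 129 ± 10.995 in starved control, 178 ± 4.97 in OGDH-depleted and 163 ± 15.4 CPM in starved OGDH-depleted cells (SD, n = 3 each). It fell by 0.38 on the log2 scale (SE 0.10, adjusted p = 0.012) in control cells and was 0.35 higher (SE 0.10, adjusted p = 0.024) in OGDH-depleted cells without glucose, with an interaction of 0.26 (SE 0.14, adjusted p = 0.25). The fall was lost without starved control replicate 1 (adjusted p = 0.057) and when only the compared groups were fitted (adjusted p = 0.070). The difference without glucose was lost without replicate 1 or 2 of starved control or of starved OGDH-depleted cells, at adjusted p = 0.071 to 0.097, with only the compared groups (adjusted p = 0.086) and with no filter on low counts (adjusted p = 0.061). SLC25A28, the second mitoferrin, and the glutathione carriers SLC25A39 and SLC25A40 gave changes of -0.22 (SE 0.17), -0.20 (SE 0.30) and 0.04 (SE 0.29) in starved control cells, none called.

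Of the carriers whose substrate is less settled, SLC25A35 fell on starvation of control cells. It lies on chromosome 17 at 8287763 to 8295400 (hg38) and shares 28.7% of its exon bases with RANGRF. The level was 4.92, 8.09 and 6.45 CPM in control, 2.53, 4.08 and 1.73 CPM in starved control, 5.76, 6.40 and 5.26 CPM in OGDH-depleted and 6.01, 7.79 and 8.66 CPM in starved OGDH-depleted cells. The starved controls were the lowest libraries, with no overlap with another group. The fall in control cells was by 1.23 on the log2 scale (SE 0.29, adjusted p = 0.0060), the difference without glucose 1.44 (SE 0.29, adjusted p = 0.0029) and the interaction 1.598 (SE 0.39, adjusted p = 0.016). With the GC offset the SLC25A35 fall was -1.08 (adjusted p = 0.052), and with that offset and without the 3 libraries it was -0.31 (adjusted p = 0.36), with an interaction of 0.73 (adjusted p = 0.11).

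SLC25A45 fell by 0.42 on the log2 scale (SE 0.14, adjusted p = 0.043) in starved control cells, from 10.5 ± 1.34 to 7.82 ± 1.16 CPM. The call was kept in 9 of 24 alternatives. It was lost at adjusted p = 0.056 to 0.16 without control replicate 1 or 3, starved control replicate 1 or 2, any OGDH-depleted library with glucose, or starved OGDH-depleted replicate 3. SLC25A34, named here after its values were seen because it lies under the 5 CPM asked of named genes, was the single call in starved OGDH-depleted cells. It went from 1.88, 2.38 and 2.69 CPM to 1.32, 0.791 and 0.319 CPM, with no overlap, a log2 change of -1.49 (SE 0.40, adjusted p = 0.048). In control cells the change was -0.88 (SE 0.42, adjusted p = 0.13) and the interaction was -0.61 (SE 0.59, adjusted p = 0.56). The call was lost in 8 of the 12 fits that left out a library, at adjusted p = 0.062 to 0.16. These were the fits without control replicate 3, starved control replicate 1 or 2, any OGDH-depleted library with glucose, or starved OGDH-depleted replicate 2 or 3. SLC25A43, SLC25A46, an outer membrane protein of mitochondrial dynamics, and SLC25A53 were called in none of the comparisons.

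GC content ran through these values. The 42 carriers have a longest transcript of 32.1% (SLC25A46) to 65.6% (SLC25A1) GC, with a median of 49.98%. In control replicate 2 the carriers above that median were the lowest of the 3 control libraries for 16 of 21 genes, in starved OGDH-depleted replicate 3 also for 16 of 21, and in starved control replicate 3 they were the highest for 16 of 21. The log2 deviation of a library from the other 2 of its group had a Pearson r with GC of -0.74, -0.71 and 0.66 in these libraries across 42 genes, which share a library and its depth and are no independent replicates. The log2 changes between groups had a Pearson r with GC of -0.14 (Spearman rho -0.33) for starvation of control cells. For starvation of OGDH-depleted cells r was -0.47 (rho -0.56). For OGDH loss it was 0.48 (rho 0.53) with glucose and 0.19 (rho 0.18) without, and for the interaction -0.16 (rho -0.13). The part of GC content in each call was not tested beyond the offset. SLC25A12, SLC25A27 and SLC25A30, at 44.2%, 42.2% and 40.7% GC, kept their calls with the offset in starved control cells, as did SLC25A25, at 55.4%. SLC25A35 and SLC25A23, at 59.3% and 58.5%, lost theirs, with values of -1.08 and -0.55.

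**Figure D5:**
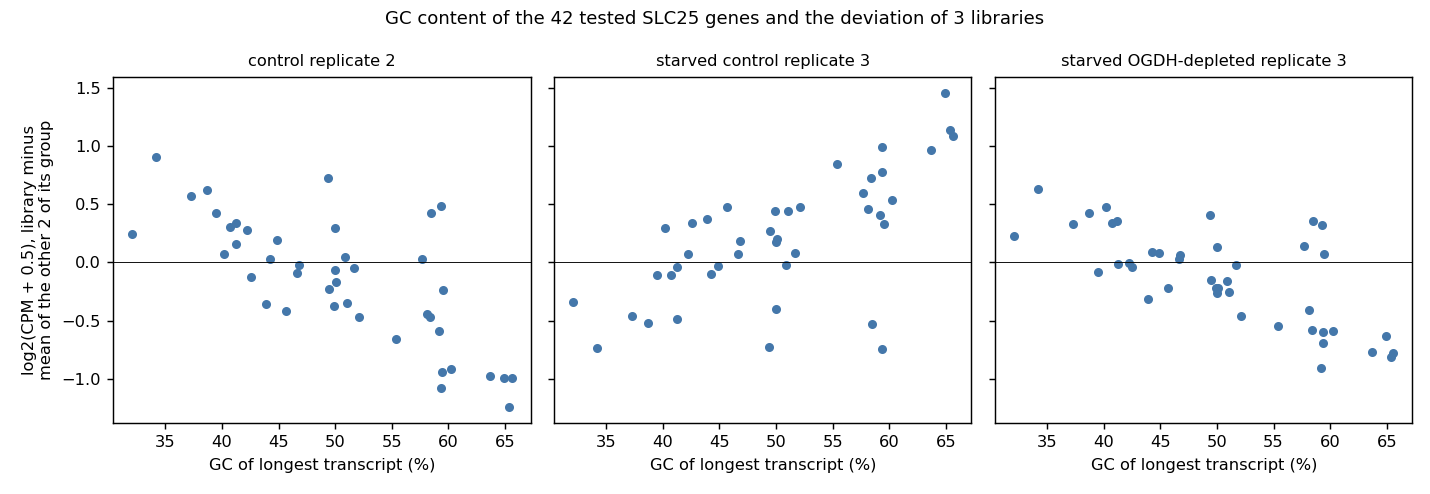
Log2(CPM + 0.5) of 1 library minus the mean of the other 2 of its group (vertical axis) against GC content of the longest transcript in percent (horizontal axis), 1 point for each of the 42 tested SLC25 genes, for the 3 libraries that stood apart. The points slope down in control replicate 2 and starved OGDH-depleted replicate 3 and up in starved control replicate 3, with r of -0.74, -0.71 and 0.66.

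Promoter windows were read from RefSeq (GRCh38.p14) for 40 of the 48 members, 51 windows in all, each from 250 bases before to 50 after a gene start. SLC25A16, SLC25A30 and SLC25A35 had no window there. Windows of 5 members with a response are shown, as the 250 bases before the start. They are a selection of carriers that fell in starved controls (SLC25A12, SLC25A27) and of carriers that rose (SLC25A25, SLC25A33, SLC25A38). The windows of other carriers with a response are left out, among them SLC25A6, which rose most. The windows shown lie as follows. They are chr2:171894245-171894494 on the minus strand for SLC25A12, a start inside the counted gene, and on the plus strand chr6:46652725-46652974 for SLC25A27, chr9:128098257-128098506 for 1 of 3 starts of SLC25A25, chr1:9539215-9539464 for SLC25A33 and chr3:39383120-39383369 for SLC25A38. Capitals mark matches to the cyclic AMP response element core TGACGTCA and the E-box CACGTG.
SLC25A12: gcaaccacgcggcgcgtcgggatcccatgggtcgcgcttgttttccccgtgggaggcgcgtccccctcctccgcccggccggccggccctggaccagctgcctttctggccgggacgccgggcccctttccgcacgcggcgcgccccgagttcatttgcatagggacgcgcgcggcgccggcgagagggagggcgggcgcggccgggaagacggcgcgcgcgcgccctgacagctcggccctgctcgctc
SLC25A27: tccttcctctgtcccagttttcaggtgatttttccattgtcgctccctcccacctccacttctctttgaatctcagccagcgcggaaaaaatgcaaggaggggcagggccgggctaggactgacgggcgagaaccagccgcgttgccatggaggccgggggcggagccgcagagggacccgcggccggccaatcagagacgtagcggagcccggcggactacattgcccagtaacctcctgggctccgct
SLC25A25: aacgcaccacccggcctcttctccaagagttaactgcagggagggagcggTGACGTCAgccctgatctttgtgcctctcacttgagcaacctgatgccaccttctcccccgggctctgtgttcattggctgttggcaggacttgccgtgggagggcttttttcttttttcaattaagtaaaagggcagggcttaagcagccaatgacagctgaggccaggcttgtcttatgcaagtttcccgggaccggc
SLC25A33: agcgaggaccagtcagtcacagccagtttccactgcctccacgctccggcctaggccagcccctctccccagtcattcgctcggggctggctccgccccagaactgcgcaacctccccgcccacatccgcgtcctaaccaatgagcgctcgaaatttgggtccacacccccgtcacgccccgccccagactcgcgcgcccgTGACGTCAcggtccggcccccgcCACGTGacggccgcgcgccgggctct
SLC25A38: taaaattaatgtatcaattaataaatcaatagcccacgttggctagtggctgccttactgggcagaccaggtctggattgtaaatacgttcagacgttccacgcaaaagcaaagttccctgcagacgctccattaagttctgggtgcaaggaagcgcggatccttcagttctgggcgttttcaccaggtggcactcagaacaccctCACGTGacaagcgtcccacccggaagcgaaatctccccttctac

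Motifs were searched on both strands of the whole windows, and no match overlapped another. The windows of members had a median GC content of 66%, beside 58.7% over all promoters. Its part in the shares below was not tested. The E-box was found in 9 of 40 members (22.5%), which were SLC25A13, SLC25A22, SLC25A26, SLC25A31, SLC25A33, SLC25A36, SLC25A38, SLC25A46 and SLC25A51, beside 8.77% of 27305 gene symbols. The cyclic AMP response element core was found in SLC25A25, SLC25A33 and SLC25A36 (7.5%, beside 2.25% of symbols). The amino acid response element core TGATGNAA was found in SLC25A11 alone (2.5%, beside 4.46%). The ER stress element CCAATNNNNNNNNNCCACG and the NRF1 site core were found in 0 of 40 members, beside 0.0916% and 1.52% of symbols. Of the members with an E-box, SLC25A33 and SLC25A38 rose in starved controls and 6 others were tested and not called. The windows of SLC25A12 and SLC25A27 held none of these letters. Neither did those of SLC25A6, which rose, nor the other windows of SLC25A25, so not every carrier that rose had a match. The windows of SLC25A15, SLC25A23 and SLC25A45, which fell, held none either. The cyclic AMP response element and NRF1 letters were added after values had been seen, and a match is a description of the sequence only.

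Genes that work with the carriers were taken as lists. Of 18 other mitochondrial membrane transporters, 6 fell and 0 rose on starvation of control cells (33.3% called, beside 34.5% of all tested genes). DESeq2 gave 6 lower and 2 higher, and the fit without the 3 libraries that stood apart 9 lower and 5 higher. The largest changes were in the sideroflexins SFXN5 (-1.04, SE 0.25, adjusted p = 0.0072) and SFXN3 (-0.77, SE 0.13, adjusted p = 0.00075), which belong to a family of serine and amino acid transporters, then in ABCB10 (-0.47, SE 0.16, adjusted p = 0.035) and the outer membrane channel VDAC3 (-0.44, SE 0.09, adjusted p = 0.0034). The median of that list was -0.06. Of 12 tested parts of the import machinery for carrier proteins, TIMM9 rose and TIMM8A and TIMM10 fell (25% called), and without the 3 libraries 3 were higher and 7 lower. Of 16 enzymes of the shuttles and of citrate use, GOT1 and ME1 rose and ACO1 fell (18.8% called), and without the 3 libraries 4 were higher and 5 lower. The uncoupling proteins UCP2 and UCP3 and the carrier relatives MTCH1 and MTCH2 gave 0 calls of 4 in every comparison by edgeR on all libraries and by DESeq2. With the 3 outlying libraries left out, edgeR called 3 of them lower on starvation of control cells, 2 higher for OGDH loss without glucose and 2 higher for the interaction. On all libraries 1 of them had an unadjusted p under 0.05 on starvation of control cells, and in the other comparisons 0 had.

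GOT1, the cytosolic aspartate aminotransferase that works with SLC25A12 and SLC25A13 in the malate-aspartate shuttle, moved opposite to SLC25A12. It was at 58.7, 42.6 and 53.9 CPM in control and 133, 122 and 163 CPM in starved control cells. OGDH-depleted cells held 65.8, 63.1 and 62.1 CPM, and starved OGDH-depleted cells 70.1, 64.2 and 56.3 CPM. The starved controls lay above all 9 other libraries. GOT1 rose by 1.43 on the log2 scale (SE 0.14, adjusted p = 1.9e-05) in control cells, was -1.13 (SE 0.14, adjusted p = 0.00015) in OGDH-depleted against control cells without glucose, and had an interaction of -1.43 (SE 0.20, adjusted p = 0.00060). VDAC3 (0.58, SE 0.13, adjusted p = 0.010) and ACO1 (0.54, SE 0.15, adjusted p = 0.029) were the other interaction calls of these lists, where 17.3% of all tested genes were called. The 3 GOT1 calls held under all 24, 24 and 23 alternatives. In starved OGDH-depleted cells 0 of the genes of these 4 lists were called by edgeR on all libraries, beside 7.18% of all tested genes. At an unadjusted p under 0.05 there were 6 of the 18 transporters and 2 of the 16 enzymes. DESeq2 called 2 of the transporters there, 1 higher and 1 lower, and 0 of the other lists. With the GC offset edgeR called 1 transporter lower, and without the 3 libraries 1 transporter higher, 2 lower and 1 enzyme higher.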

How the data were processed

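RNA was sequenced from 12 A375 libraries in 4 groups of 3, grouped by the sample labels. The deposited values are raw counts per gene. The authors counted read pairs over exons with featureCounts 2.0.1 by gene name, without strand and without multi-mapping or gene-overlapping fragments, per the file headers, with hg38 coordinates. The submitters' processing notes list Subread and hg38. For the aligner, the trimming and the library kit: not given in the sources used here.

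Counts were tested with edgeR 4.0.16 (R 4.3.3, limma 3.58.1) by its quasi-likelihood test, with TMM scaling, filterByExpr (minimum count 10, minimum total 15) and 1 model of 4 group means, which gave 5 contrasts. The adjusted p is Benjamini-Hochberg over all 18526 tested genes, with a threshold of 0.05. CPM values were computed from these counts and the TMM library sizes. The test of starvation of control cells was checked on simulated counts. These held no GC trend and no outlying libraries, so the check cannot speak to either. GC content came from GENCODE 29 transcripts, for 96.4% of tested genes. Alternatives were DESeq2 1.42.0, other scalings and filters (none, or 1 CPM in 6 libraries), the compared groups alone, MT- genes left out, the replicate number as a block, a GC-content offset (lowess, span 0.3), each library left out, and the 3 outlying libraries left out. The GC-content offset without those 3 libraries was added after seeing the data.

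Per-library values were printed for called carriers at 5 CPM or more in the higher group, up to 6 in each direction, and for a fixed set of shuttle, citrate, nucleotide and cofactor carriers. Other genes were named from lists, up to 4 by size of change. The values of 1 tested carrier are not reported here, though it is part of the counts. The members and the lists were chosen with earlier results of these data known.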

Additional observations from a re-analysis of the deposited data

Results flagged for a closer look

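The starvation responses of OGDH-depleted and control cells differed, by the edgeR interaction test, for 7 carriers. The difference, depleted minus control on the log2 scale, was 1.04 for SLC25A12, 1.06 for SLC25A27, 0.84 for SLC25A30 and 1.598 for SLC25A35. It was -1.56 for SLC25A25, -0.51 for SLC25A16 and -0.41 for SLC25A38. The part of GC content and of the 3 libraries that stood apart was tested only through the alternatives, under which SLC25A12, SLC25A25, SLC25A27 and SLC25A30 were called in 23 of 23.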

How the results depend on the processing

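The main counts of called carriers were 12 and 1 for starvation of control and OGDH-depleted cells, 1 and 7 for OGDH loss with and without glucose, and 7 for the interaction. Fitting only the compared groups gave 7 for starvation of control cells and 4 for loss without glucose. For loss with glucose DESeq2 gave 4, upper-quartile scaling 2, no filter 2, the stricter filter 2 and the GC offset 3. The GC offset gave 12 for loss without glucose, 8 higher and 4 lower. Without the 3 outlying libraries the counts in the order above were 29, 4, 5, 20 and 20, and with the GC offset as well 24, 6, 7, 21 and 19. Of the main calls 11 of 12, 6 of 7 and 7 of 7 were shared without the 3 libraries for starvation of control cells, loss without glucose and the interaction. Leaving out 1 library gave 9 to 16, 0 to 1, 1 to 2, 4 to 8 and 5 to 7. Without the 3 libraries, the GC trend cannot be told apart from starvation of control cells, from OGDH loss without glucose or from the interaction. The cause of these shifts was not tested.

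With a replicate block the counts were 12, 0, 1, 7 and 5, and with the GC offset and replicate block 16, 2, 3, 11 and 10. Pairing by replicate number is not given by the labels and was not seen in the counts. Of 18 same-number pairs, 7 had a correlation of their deviations from the group mean over 0.1. The range was -0.69 to 0.64, and 5 libraries correlated best with their own number. The 3 outlying libraries carry the numbers 2, 3 and 3 and weigh on these correlations, so the check cannot decide whether the numbers pair cultures.

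Turned signs are given only for values called in the main fit or the alternative. Without the 3 libraries signs turned for SLC25A24 (0.33) and SLC25A29 (-0.41) in starved controls and SLC25A40 (-0.37) in loss without glucose. In the interaction signs turned for SLC25A3 (0.33) and SLC25A43 (-0.58). With the GC offset as well they turned for SLC25A23 (0.067) in starved controls, SLC25A1 (0.33) in starved OGDH-depleted cells, and SLC25A3 (0.45) and SLC25A43 (-0.60) in the interaction. Over all single carriers and alternatives 91 values lost a call and 174 gained one. A further 10 turned sign with a call in the main fit or the alternative, not all of them named. The other 4707 kept their side of the threshold. Turns of sign between uncalled values were counted among these, so the number of all turned signs is not given.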
